A study of Drosophila melanogaster with 2 samples.

Results

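Of the 48 proteasome subunit genes of the fly, 1, Rpn3, had a binding peak of the Rough protein at its promoter in whole embryos. The genes were chosen by name, as protein-coding genes whose symbol begins with Prosalpha, Prosbeta, or Rpn or Rpt followed by a digit. The 48 genes stand among 13968 protein-coding genes on the chromosome arms, and the other 13920 serve as the comparison. Of the 48, 32 are the subunits themselves, and 16 are paralogs that carry the name of a subunit with an added T or R.

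Binding was measured by chromatin immunoprecipitation and sequencing (ChIP-seq), deposited as peak lists, in embryos aged 0-24 h of the fly strain ro-GFP, which expresses Rough, a homeodomain transcription factor encoded by ro, as a fusion with eGFP. The pull-down used an antibody against GFP. There was 1 group with 2 biological replicates, both carrying the fusion, and no control sample was analysed here. Whole embryos mix all cell types and ages within 0-24 h, so binding in a few cells and weak binding in many cannot be told apart. Read counts are not part of the lists, so how deeply each library was sequenced is unknown.

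The proteasome degrades proteins that have been tagged with ubiquitin. Its 20S core is a barrel whose outer rings are built of alpha subunits, which gate the entry, and whose inner rings are built of beta subunits, of which Prosbeta1, Prosbeta2 and Prosbeta5 carry the proteolytic sites. The 19S cap binds the core: its Rpt subunits are ATPases that unfold substrates and feed them in, and its Rpn subunits form the scaffold, bind ubiquitin and, in Rpn11, remove it. The genes are expressed broadly, and in the fly some of the T and R paralogs encode subunits of a testis-specific proteasome.

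By role, the genes comprised 7 alpha subunits with 5 paralogs, 7 beta subunits with 6 paralogs, 6 Rpt ATPases with 3 paralogs and 12 Rpn subunits with 2 paralogs. They were spread over the genome, with 8 genes on chromosome arm 2L, 13 on 2R, 7 on 3L, 14 on 3R and 6 on X.

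Peaks were taken from 4 lists of the authors: the optimal set over both replicates (1969 peaks), a stricter conservative set (1627 peaks), and the list of each replicate (1484 peaks in replicate 1 and 1113 in replicate 2). A promoter peak is one whose summit lay within 500 bp of an annotated transcript start. In the optimal set, 1 of 48 proteasome subunit genes had a promoter peak (2.08%, Wilson 95% interval 0.369 to 10.9%), against 1063 of 13920 other protein-coding genes (7.64%). The same 1 gene, Rpn3, was found in the conservative set, against 6.85% of other genes, in replicate 1, against 6.04%, and in replicate 2, against 5.45%. The difference in the optimal set was -5.55 percentage points, with a Newcombe 95% interval of -7.33 to 3.27. The interval includes 0, so with 48 genes the lower share was not larger than counting error. Intervals cover counting error only.

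Assigning each peak to the nearest protein-coding start gave the same single gene. Rpn3 was the nearest start of a peak in each of the 4 lists, against 10.6% of other genes in the optimal set, 8.92% in the conservative set, 8.07% in replicate 1 and 6.72% in replicate 2. A promoter peak in both replicates' own lists was found at 1 of 48 proteasome subunit genes (2.08%), against 563 other genes (4.04%).

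By role, the optimal set held a promoter peak at 0 of 12 alpha ring genes, 0 of 13 beta ring genes, 0 of 9 Rpt genes and 1 of 14 Rpn genes. The subunits themselves had 1 in 32 (3.12%, Wilson 95% interval 0.554 to 15.7%), and the paralogs 0 of 16, for which the interval reached up to 19.4%.

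**Figure D1:**
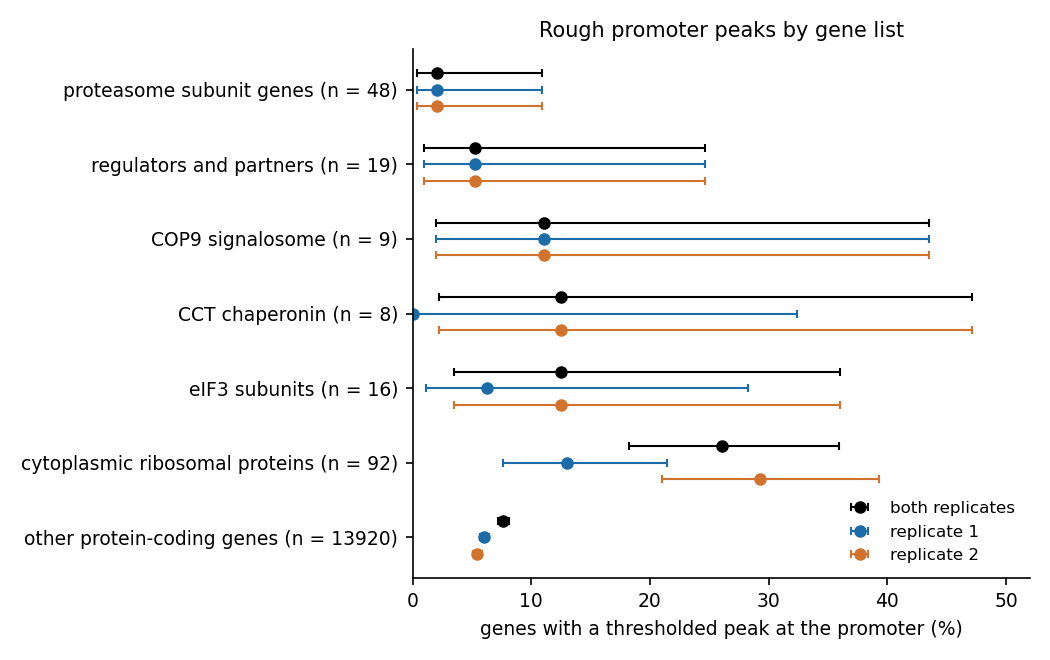
Percent of genes with a thresholded promoter peak (x axis) for the proteasome subunit genes and, below them, the comparison lists and all other protein-coding genes, in the list over both replicates (optimal set) and in each replicate's list. Points are shares and bars are Wilson 95% intervals; the proteasome subunit genes sit at 2.08% in all 3 lists, and other protein-coding genes at 7.64%, 6.04% and 5.45%.

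The plot of shares by gene list shows the proteasome subunit genes below other protein-coding genes in all 3 lists, with an interval that takes in the share of those genes and overlaps the intervals of the small lists. In replicate 1 the CCT chaperonin genes were lower still, at 0%.

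Rpn3 encodes a scaffold subunit of the lid of the 19S cap. The gene (FBgn0261396) lies on the plus strand at chr2L:19051790-19053681 of the dm6 build. Its optimal-set peak covered chr2L:19051582-19051961, with the summit at 19051772, 18 bp upstream of the Rpn3 start. The summit was intergenic, between Rpn3 and l(2)37Bb (FBgn0002021), which runs the other way from a start 178 bp from that of Rpn3. The summit lay 160 bp upstream of the l(2)37Bb start, so the peak was within 500 bp of both genes and could not be assigned to 1 of them by position. A second annotated Rpn3 start lay 157 bp downstream of the summit.

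The signal value, the authors' measure of peak strength within a list, was 133 for this peak in the optimal set. There it ranked 614 of 1969 by signal, and 31.1% of the peaks were stronger. In replicate 1 the peak had a signal value of 70.9 and ranked 712 of 1484, with its summit 3 bp upstream of the Rpn3 start. In replicate 2 it had a signal value of 63.1 and ranked 596 of 1113, with its summit 18 bp upstream. Both replicates thus placed a peak of middling strength with summits 15 bp apart.

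The q value of the peak, converted from the authors' deposited −log10 q, was 0.0357 in the optimal set, 0.00726 in replicate 1 and 0.0703 in replicate 2. The replicate 2 value is above 0.05. The authors thresholded the lists by a global irreproducible discovery rate (IDR), which was at most 0.01 in the optimal set, used here as the threshold. For the Rpn3 peak the IDR was 0.000478 over both replicates, 0.000269 in replicate 1 and 0.000835 in replicate 2.

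The 177 bp between the starts of l(2)37Bb and Rpn3, chr2L:19051613-19051789, are printed because the summit lies in them and because most of them are a tandem repeat. The plus strand is shown in the direction of Rpn3, on the Release 6 assembly, with the copies of the repeat in capitals.

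Rpn3 upstream: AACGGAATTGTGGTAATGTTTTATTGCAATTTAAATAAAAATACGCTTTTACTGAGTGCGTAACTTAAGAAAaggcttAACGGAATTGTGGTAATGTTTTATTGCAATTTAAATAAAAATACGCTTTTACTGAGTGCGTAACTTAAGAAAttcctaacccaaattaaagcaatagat

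The repeat unit of 72 bases occurred as 2 identical copies, at 19051613 to 19051684 and 19051691 to 19051762, with 6 bases between them. Together the copies made up 144 of the 177 bases (81.4%), and the unit occurred nowhere else on the chromosome arms. The summit of the optimal-set peak lay 10 bp past the end of the second copy. The stretch was 71.2% A and T.

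An exact direct repeat of at least 50 bases was then looked for in every promoter window, from 250 bases before to 50 bases after a start. It was present at 1 of 48 proteasome subunit genes (2.08%), which was Rpn3, and at 17 of 13920 other protein-coding genes (0.122%). Among the 1063 other genes with an optimal-set promoter peak, 1 had such a repeat (0.0941%). That gene is l(2)37Bb, which shares the Rpn3 peak and whose window holds the same copies, and it is also among the 17. The repeat and peak of this locus were thus counted again, and no other locus had both. This search was chosen after the sequence had been seen. How reads that match both copies were handled is not given in the sources used here, and the part of the repeat in the peak was not tested.

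**Figure D2:**
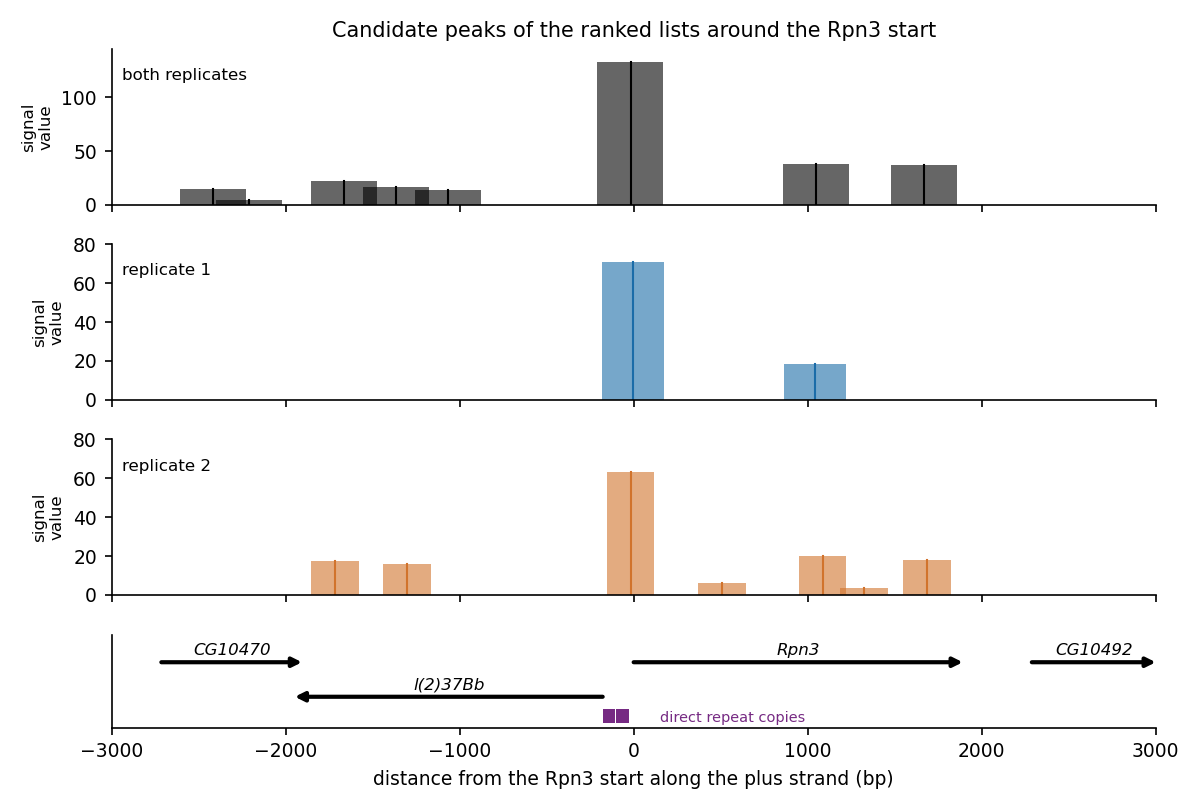
Candidate peaks of the ranked lists within 3 kb of the Rpn3 start (x axis, bp along the plus strand), drawn as boxes from peak start to peak end with the signal value as height and a line at the summit, for both replicates together, replicate 1 and replicate 2, above the protein-coding genes (Acn, which ends at the left edge, is not drawn) and the repeat copies. The candidate at the start has signal values of 133, 70.9 and 63.1 in the 3 lists, and the others reach at most 37.7, 18.6 and 20.2.

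Ranked lists give all candidate peaks before thresholding: 144610 over both replicates, 93400 in replicate 1 and 121684 in replicate 2. The map of candidates around Rpn3 shows the promoter candidate standing alone in strength. In the list over both replicates, the 7 other candidates within 3 kb had signal values from 4.72 to 37.7. The single other one in replicate 1 had 18.6, and those in replicate 2 had 3.74 to 20.2.

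Prosbeta2, which carries the trypsin-like site of the core, came closest to the threshold among the genes without a peak. Its strongest promoter candidate, at chr3L:14999609-14999988, had a signal value of 70.7 and an IDR of 0.0104, just above the threshold of 0.01. Its rank was 1939 in the ranked list over both replicates, where Rpn3 ranked 658, and 328 of the 1969 optimal-set peaks (16.7%) had a lower signal value. In the replicates' own ranked lists the overlapping candidates had signal values of 39.8 (rank 2072 in replicate 1) and 28.5 (rank 5575 in replicate 2). Neither replicate's own candidate was in its thresholded list.

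As at Rpn3, the candidate at Prosbeta2 lay between divergent starts, but its summit was farther from the nearer start than the 18 bp at Rpn3. The summit was intergenic, 152 bp upstream of Prosbeta2 and 133 bp upstream of the divergent gene mRpL39, which encodes a protein of the mitochondrial ribosome. The 200 bp before the Prosbeta2 start, chr3L:14999751-14999950, plus strand, are printed because the summit lies in them. They were 78% A and T, with a DRE word (the motif TATCGATA, described with the promoter motifs) in capitals.

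Prosbeta2 upstream: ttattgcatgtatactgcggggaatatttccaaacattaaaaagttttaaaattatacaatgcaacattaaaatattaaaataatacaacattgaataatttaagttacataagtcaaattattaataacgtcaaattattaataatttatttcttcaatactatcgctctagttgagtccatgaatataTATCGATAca

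The next 4 genes were far below Rpn3 and had an IDR above the threshold. Rpn5, a lid subunit, had a candidate of signal value 55.8 (IDR 0.775), 104 bp upstream of Rpn5 but 5 bp upstream of Hat1, a histone acetyltransferase gene. It had an overlapping candidate of 20.3 in replicate 2 and none in replicate 1. Rpn6, a lid subunit that contacts the core, had one of 52.7 (IDR 0.0406), 109 bp upstream of a start of Rpn6 and 141 bp upstream of ave. The summit also lay inside another annotated transcript of Rpn6. Rpn6 had an overlapping candidate of 22.4 in replicate 1 and 31.1 in replicate 2.

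Prosalpha2, an alpha ring subunit, had a candidate of signal value 44.4 (IDR 0.377), 484 bp upstream of its start and inside the coding sequence of CG5245. It had an overlapping candidate of 25.3 in replicate 1 and none in replicate 2. Rpn8, the lid partner of Rpn11, had one of 44.1 (IDR 0.21), 137 bp downstream of a start, with 19.4 in replicate 2 and none in replicate 1. That start is not the main start of Rpn8, and the summit also lay inside a transcript of Slik. A candidate 446 bp downstream of the main Rpn8 start had 29.2. Of these 5 genes, Prosbeta2 and Rpn6 had an overlapping candidate in both replicates.

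Without a threshold, most of the genes still had some weak candidate. A promoter candidate was present in the list over both replicates at 31 of 48 proteasome subunit genes (64.6%), against 71.8% of other protein-coding genes. The shares were 21 of 48 (43.8%) against 54.8% in replicate 1, and 36 of 48 (75%) against 71.2% in replicate 2. The order of the shares differed between the replicates. Candidates in all 3 lists were found at 16 genes (33.3%), against 44.6% of other genes. In none of the 3 lists was there a promoter candidate at 7 genes (14.6%), against 16.7% of other genes: the alpha ring genes Prosalpha1 and Prosalpha6, the paralog Prosalpha1R, the lid genes Rpn7 and Rpn12, the paralog Rpn12R and the ATPase gene Rpt4.

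The strongest promoter candidate per gene was described by its signal value, over the genes that had one. In the list over both replicates the proteasome subunit genes had a median of 22.7 (quartiles 15.2 to 36.4, range 2.22 to 133, 31 genes), against 28.7 in other genes (quartiles 19.2 to 41.6, 9996 genes). In replicate 1 the medians were 15.1 (21 genes) and 17.3 (7632 genes), and in replicate 2 they were 16.1 (36 genes) and 17.6 (9907 genes). The quartile ranges overlapped in each list. With promoters taken as 1000 bp to each side, the order over both replicates turned, at 34.2 for the proteasome subunit genes and 33.5 for other genes. The median candidate ranked at 40.1% of the list over both replicates for the proteasome subunit genes, and at 26% for other genes.

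Among the alpha ring genes and their paralogs, 6 of 12 had a promoter candidate in the list over both replicates, with a median signal value of 34.3. They ranged from 2.22 at the paralog Prosalpha3T to 44.4 at Prosalpha2. Prosalpha4 had 35.8 and its paralog Prosalpha4T1 had 35.9.

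Among the beta ring genes and their paralogs, 10 of 13 had one, with a median of 21.3. Prosbeta2, at 70.7, was followed by Prosbeta7, at 33.8. The other catalytic subunits were weaker: Prosbeta1, with the caspase-like site, had 18.6, and Prosbeta5, with the chymotrypsin-like site, had a candidate in replicate 2 only, at 16.3. The Prosbeta2 paralog Prosbeta2R1 had 18.2.

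Among the ATPase genes and their paralogs, 5 of 9 had one, with a median of 15.4. All 5 summits lay downstream of the start, while in other genes 47.9% lay upstream. The replicates' own lists differed, with 50% upstream in replicate 1 (2 genes) and 16.7% in replicate 2 (6 genes). The highest signal value over both replicates was that of the paralog Rpt3R, at 36.9, and its namesake Rpt3 had 19.7. Rpt1 had a candidate in replicate 2 only (16.1), and Rpt6 in replicate 1 only (13.3).

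Among the Rpn genes and their paralogs, 10 of 14 had one, with a median of 30.4. Rpn1, a large scaffold subunit of the base, had 37.4, and Rpn2, the other large scaffold, had 20.7. The ubiquitin receptor genes Rpn13 and Rpn10 had 23.3 and 15.0. Rpn11, the deubiquitinase of the lid, had 22.9, and Rpn9 had a candidate in replicate 1 only (11.9).

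**Figure D3:**
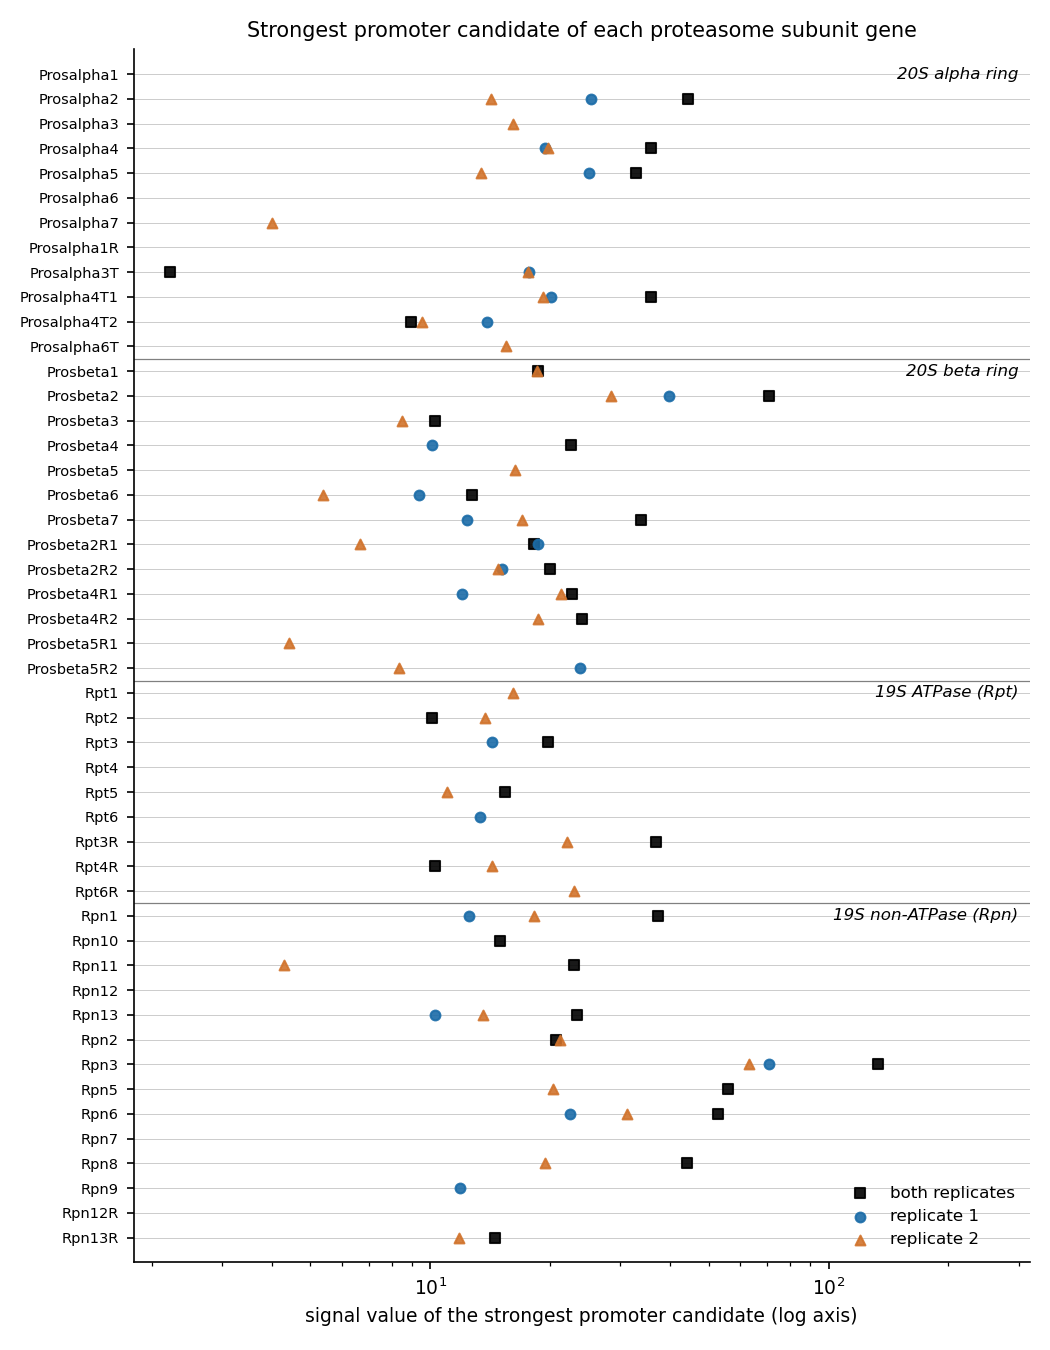
Signal value (x axis, log scale) of the strongest promoter candidate of each of the 48 proteasome subunit genes, grouped by role, in the ranked list over both replicates (squares), replicate 1 (circles) and replicate 2 (triangles); a row with no symbol has no promoter candidate. Signal values are comparable within a list only; Rpn3 is highest in each list, at 133, 70.9 and 63.1.

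The plot of candidates by gene shows Rpn3 apart from the other genes in each list. The next in each list was Prosbeta2 at 70.7 over both replicates and 39.8 in replicate 1, and Rpn6 at 31.1 in replicate 2. A promoter candidate in both replicates' ranked lists was found at 17 of 48 proteasome subunit genes (35.4%), against 46.1% of other genes. Across those 17 genes the signal values of the replicates had a Spearman rho of 0.353, and 0.224 over the 16 left without Rpn3, against 0.538 across 6418 other genes. These are correlations across genes of the same pair of libraries, and genes are not independent replicates.

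The candidate curve was below that of other genes over both replicates at each signal value above which genes were counted. At a signal value of 50 or more, 8.33% of the proteasome subunit genes had a promoter candidate, against 12.7% of other genes. At 100 or more the shares were 2.08% and 5.12%. Counting by rank gave the same order: 2 of 48 genes (4.17%) had a promoter candidate among the strongest 2000, against 7.73% of other genes. In each replicate's own list 1 gene, Rpn3, was among the strongest 2000, against 7.31% of other genes in replicate 1 and 7.72% in replicate 2. Among the strongest 20000 over both replicates there were 8 genes (16.7%), against 24%. In replicate 1 the strongest 20000 held candidates of 8 genes, against 22.6% of other genes, and in replicate 2 of 7 genes, against 25.3%. No test was made of these differences.

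**Figure D4:**
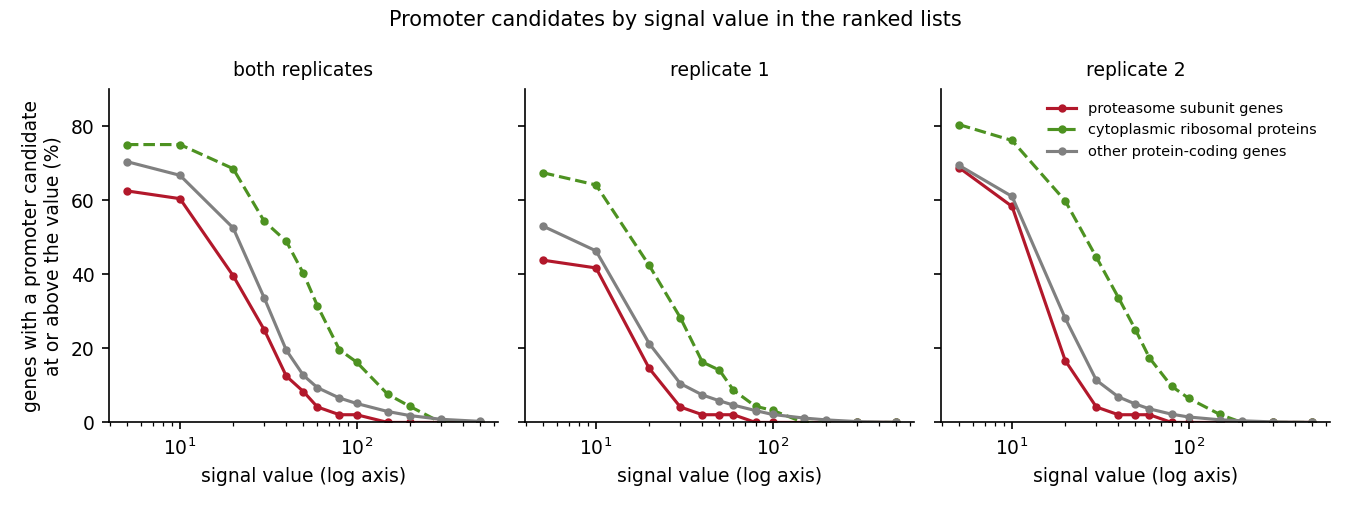
Percent of genes with a promoter candidate at or above each signal value (x axis, log scale) in the ranked lists over both replicates, of replicate 1 and of replicate 2, for the proteasome subunit genes (red), cytoplasmic ribosomal protein genes (green, dashed) and other protein-coding genes (grey). At a signal value of 50 or more over both replicates the shares are 8.33%, 40.2% and 12.7%.

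Divergent neighbours were common at these genes. A start on the opposite strand, pointing away and at most 1000 bp off, was present at 23 of 48 proteasome subunit genes (47.9%), against 32.6% of other genes. The subunits themselves had one at 20 of 32 (62.5%), with a median gap of 254 bp, and the paralogs at 3 of 16 (18.8%). Among genes with such a partner, 1 of 23 proteasome subunit genes had an optimal-set promoter peak (4.35%), against 13.1% of other genes with a partner. The same 1 of 23 stood against 12.1% in the conservative set, 10.3% in replicate 1 and 9.62% in replicate 2. Among genes without one the counts were 0 of 25 and 5.01%.

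Peaks of neighbouring genes lay close to several of the genes. The nearest optimal-set summit was within 5 kb at 10 of 48 proteasome subunit genes (20.8%), against 18.7% of other genes. The median distance was 18 kb, against 21.1 kb. Besides Rpn3, these were Prosbeta6 (1.95 kb), Rpn5 (2.29 kb), Prosalpha3 (2.46 kb), Prosalpha4 (2.69 kb), Rpt2 (2.87 kb), Prosalpha1 (3.29 kb), Rpt6 (3.38 kb), Prosbeta7 (3.5 kb) and the paralog Prosbeta2R2 (3.97 kb). In each of these 9 cases the start nearest to the peak was that of another gene. The strongest was the peak near Rpn5, of signal value 263, which lay 96 bp from Hpf1. Rpt3 was farthest from any peak, at 188 kb.

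Candidates at any distance were assigned to the nearest start. In the ranked list over both replicates, 41 of 48 proteasome subunit genes (85.4%) were the nearest start of a candidate, against 88.5% of other genes. The counts were 34 (70.8%) against 83.8% in replicate 1 and 43 (89.6%) against 88.6% in replicate 2, so the order of the shares differed between the replicates here too. A proteasome subunit gene was the nearest start of a median of 3 candidates over both replicates, and other genes of 5. The strongest candidate assigned in this way apart from that of Rpn3 was one of signal value 62.3, at 12134 bp from the paralog Rpn13R.

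The sequence of the promoters was searched for 7 short motifs on both strands, in windows from 250 bases before to 50 bases after the main start. TATCGATA, the core of the DNA replication-related element (DRE) bound by the factor Dref, was in 12 of 48 windows (25%), against 9.17% of the windows of other genes. All 12 belonged to the subunits themselves (12 of 32, 37.5%), and 0 of 16 paralogs had it. The genes are Prosalpha3, Prosalpha5 and Prosalpha6 of the alpha ring, Prosbeta1, Prosbeta2 and Prosbeta6 of the beta ring, Rpt5 of the ATPases, and Rpn3, Rpn7, Rpn9, Rpn12 and Rpn13.

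Of these 12 sites, 8 are printed with 10 bases on each side, on the strand of the gene and with the motif in capitals, because the motif sets the subunits apart from their paralogs in this count. They come from the Release 6 assembly. The number in the name is the position of the first base of the motif from the start. The stretch printed for Rpn3, chr2L:19051583-19051610, lies inside the divergent gene l(2)37Bb, whose start at 19051612 is closer to the motif than that of Rpn3.

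Prosalpha6 -16: ccgaatccctTATCGATAcccgatacac

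Prosbeta2 -10: catgaatataTATCGATAcaatatcgat

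Prosbeta6 -44: tatgtataccTATCGATAacgtttaagc

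Rpt5 -46: tcgctgtcacTATCGATAagcgccggcg

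Rpn3 -197: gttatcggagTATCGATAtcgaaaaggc

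Rpn7 4: cggtataattTATCGATAattttggggt

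Rpn9 27: cccggttaaaTATCGATAttctcgcgga

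Rpn12 -216: tgttaaaataTATCGATAttaaagcaca

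The match is to letters only and no binding of Dref was measured. Of the subunits with TATCGATA, 1 of 12 had an optimal-set promoter peak, which was Rpn3, and of those without it 0 of 20. Of other genes, 8.93% of those with the motif and 7.51% of those without it had one. The motif was in 7 of 20 subunits with a divergent partner (35%) and in 5 of 12 without one (41.7%), against 16.1% and 5.8% of other genes.

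TAATTA, the core bound by many homeodomain proteins, was in 6 of 48 windows (12.5%), against 20.1% of other windows. GGTCACACT, part of core promoter motif 1, was in 6 of 48 (12.5%), against 6.04%, and none of these 6 were paralogs. TGACNNNGC, an element of the cap n collar and Maf type, was in 6 of 48 (12.5%), against 8.56%. In vertebrates and the fly, factors of the cap n collar family raise proteasome gene expression after stress.

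GAGAG, the letters bound by GAGA factor, was in 9 of 48 windows (18.8%), against 30.2% of other windows. The subunits themselves had it in 3 of 32 (9.38%), below other windows, and the paralogs in 6 of 16 (37.5%), above them. The Wilson 95% intervals of subunits and paralogs, 3.24 to 24.2% and 18.5 to 61.4%, overlapped. TATAAA, the TATA box, was in 19 of 48 (39.6%), against 45.5%, and the E box CACGTG was in 0 of 48, against 4.21%. No motif of the set lies inside another. The windows were 65.4 ± 6.53% A and T (SD, n = 48), against 60.7 ± 7.84% (SD, n = 13920), and the part of this composition in the motif counts was not tested. The Rpn3 summit with 50 bases on each side, in the optimal set, was 75.2% A and T and held none of the 7 motifs.

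**Figure D5:**
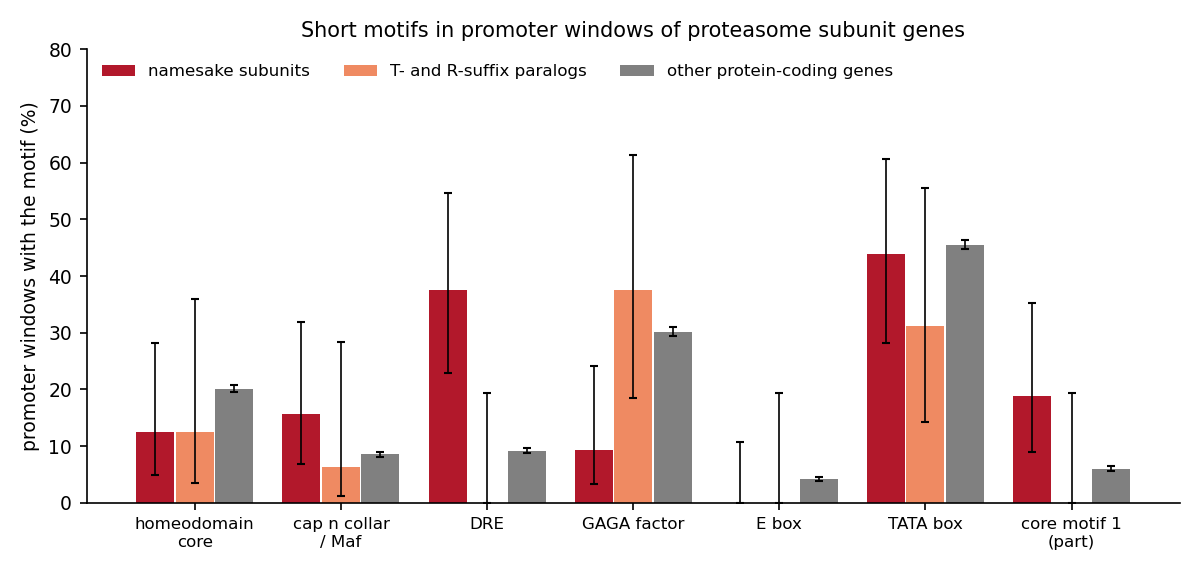
Percent of promoter windows (y axis) that hold each of the 7 motifs for the 32 proteasome subunits that the paralogs are named for or that have none (namesake subunits), their 16 T- and R-suffix paralogs and other protein-coding genes. Bars start at 0 and error bars are Wilson 95% intervals; the DRE motif is in 37.5%, 0% and 9.17% of the windows.

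The plot of motif shares shows the DRE as the motif with the widest gap between the subunits and other genes. Its interval for the 32 subunits, 22.9 to 54.7%, does not overlap that of other genes, 8.71 to 9.66%. The same held for the part of core motif 1, at 8.89 to 35.3% against 5.66 to 6.45%. It also held for GAGAG in the other direction, at 3.24 to 24.2% against 29.5 to 31%. These intervals cover counting error only, and no test of the motifs was made.

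Lists of related genes were counted the same way. Of 19 regulators and partners of the proteasome, 1 had an optimal-set promoter peak (5.26%): Pomp, which encodes an assembly chaperone of the core, with a signal value of 126 and a promoter peak in both replicates' lists. Those without a promoter peak included cnc, which encodes the cap n collar factor itself, and Uba1, the ubiquitin-activating enzyme gene. By nearest start, 2 of the 19 (10.5%) were assigned an optimal-set peak, against 10.6% of other genes. Of the 9 genes of the COP9 signalosome, a complex related to the lid, 1 had a promoter peak (11.1%). This was alien, which encodes the second subunit, at 124 and in both replicates' lists. By nearest start, 0 of the 9 were assigned a peak in the optimal set or in either replicate's list. The start of another protein-coding gene was thus closer to the peak at alien.

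Other large complexes were counted as well. CCT8 was the 1 of 8 genes of the CCT chaperonin with an optimal-set promoter peak (12.5%), at a signal value of 95.1. It had a promoter peak in replicate 2 but not in replicate 1, where the count was 0 of 8. The optimal-set summit lay at -484 bp from the CCT8 start, near the distance limit for a promoter peak. By nearest start, 0 of the 8 were assigned a peak in the optimal set or in replicate 2. The start of another protein-coding gene was thus closer to the peak at CCT8. Of the 16 genes of translation factor eIF3, eIF3c (147) and eIF3h (94.3) had one (12.5%). eIF3c had one in both replicates' lists and eIF3h in replicate 2 only, which left 6.25% in replicate 1. Cytoplasmic ribosomal protein genes had 24 of 92 (26.1%, Wilson 95% interval 18.2 to 35.9%) in the optimal set, 13% in replicate 1 and 29.3% in replicate 2, led by RpS27 at 289.5. The proteasome subunit genes, at 2.08% with an interval up to 10.9%, did not overlap that interval in the optimal set or its counterpart in replicate 2, while in replicate 1 the intervals overlapped. Both lists were chosen with earlier results of these data known, and the intervals cover counting error only. No test between the lists was made.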

How the data were processed

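The authors deposited ranked and thresholded peak lists per replicate and over both replicates, on dm6 per the labels. Each list gives the authors' signal value per peak, used within a list only. The q value was deposited as −log10 q, on a log10 scale slightly below 0 for some peaks of the lists over both replicates. The global IDR was deposited as −log10 and was converted here. Neither an aligner nor a peak caller is named in the sources used here. The deposited notes name input files that were not analysed here. The ranked lists over both replicates hold 16 columns of per-replicate values that no label ties to a sample, and these were not used. No read totals are given, so depth is unknown.

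Peaks were placed by their summit on the protein-coding genes of Ensembl release 115 (build 6.54), without transposable elements or pseudogenes, and sequences came from the Release 6 assembly, whose arm lengths hold all peaks and genes. A gene counted as having a promoter peak when a summit lay within 500 bp of any of its transcript starts. Shares have Wilson and differences Newcombe 95% intervals. The members and the comparison lists were chosen with earlier results of these data known, so no test over the list was made. Named genes are each member with a peak in any thresholded list, its divergent partner, the 5 genes without a peak that had the strongest promoter candidates, and genes of the comparison lists with an optimal-set promoter peak. Further genes are named to account for every role. Protein identity between paralogs and namesakes was not analysed here. Of the list symbols, CSN2 and Ufd1-like were matched through synonyms to alien and Ufd1, and RpL40 and RpS27A stand in both the list of regulators and that of ribosomal proteins. Placement was tested on simulated data, where 200 of 200 planted peaks were recovered. Python 3.11.15, numpy 2.4.6, pandas 2.3.3, scipy 1.17.1 and pysam 0.24.0 were used.

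Alternatives were the conservative set, the list of 1 replicate at a time, the stronger part of the optimal set, the set without peaks that overlap a stronger candidate, promoters of 250 and 1000 bp, and narrower backgrounds.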

Additional observations from a re-analysis of the deposited data

How the results depend on the processing

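The count of 1 proteasome subunit gene, Rpn3, was the same under every alternative run. Leaving out a replicate gave a difference from other genes of -3.96 (replicate 1 alone) to -3.36 percentage points (replicate 2 alone). It was smallest, at -2.83 points, in the stronger part of the optimal set by signal, and -3.77 points with promoters of 250 bp. The difference was -7.41 points among genes with a promoter candidate and -8.71 points among genes with a divergent partner, a background chosen after seeing the data. The difference was below 0 under each of these settings. The values -7.41 and -8.71 lay outside the 95% interval of the difference reported, -7.33 to 3.27, which includes 0. They rest on fewer proteasome subunit genes, 31 and 23. Their own 95% intervals, -10.1 to 5.57 and -12.4 to 7.96, were wider and also include 0. The median signal value of the strongest promoter candidate moved with the promoter width by more than the SD between the replicates' medians, except within 250 bp in replicate 2. That SD is a rough guide, since it rests on 2 values from different lists. The genes counted also changed with width, from 18 within 250 bp to 43 within 1000 bp over both replicates. Over both replicates the median was 20.5 within 250 bp, against 25.7 in other genes, and 34.2 within 1000 bp, against 33.5, where the order turned. In replicate 1 it was 12.4 within 250 bp and 17.1 within 1000 bp, and in replicate 2 it was 18.5 within 1000 bp. The cause was not tested. No paired analysis was possible because there was 1 group. With 48 genes and no read totals, a modest difference in the share with a peak was not detectable. By the authors' q values, 53.4% of the optimal set was above 0.05, as was the Rpn3 peak in replicate 2.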
